A study of Mus musculus with 28 samples.

Results

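The growth hormone axis regulators examined here are 9 genes chosen by name: the growth hormone receptor Ghr, the prolactin receptor Prlr, the signal transducers Stat5a and Stat5b, the feedback inhibitor Socs2, the transcription factors Bcl6, Cux2 and Onecut1, and the oestrogen receptor Esr1. Each gene was read from the probe set annotated to it that had the highest mean, on both array types of the series. Of the 9 genes, 8 were measured on both types, out of 31017 genes measured on either. Prlr was not analysed here. The arrays were hybridised with total RNA from mice labelled as female, of the inbred strain C57BL/6J, group housed on chow and killed after an overnight fast. Old mice were about 24 months of age (103 weeks) and young mice about 6 months (24 weeks). Liver and quadriceps, a thigh muscle, had 3 arrays at 24 months and 3 at 6 months on one array type, and heart and gastrocnemius, a calf muscle, had 4 arrays at 24 months and 4 at 6 months on another. No allele or drug was part of the design, and the series compared metabolic tissues of old and young mice given as 1 sex. The labels do not say whether each array came from a separate mouse or whether tissues came from the same mice, so the errors and p-values below measure the spread between arrays.

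Growth hormone is released by the pituitary in pulses and acts on liver through its receptor, which activates the kinase Jak2 and in turn the STAT5 proteins. STAT5 enters the nucleus and turns on Igf1, the circulating growth factor, together with Cish and Socs2, which damp the signal. In mice the pulse pattern differs between the sexes. Sets of liver genes are kept at male or female levels by STAT5 and other transcription factors. These include Bcl6, a repressor more abundant in male liver, Cux2, abundant in female liver, and Onecut1 (HNF6).

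Expression is given on the log2 scale, where 1 unit is a 2-fold change of signal, and age differences are 24 months minus 6 months. Levels of sex-linked genes went against the female label in every array, in both ages and all 4 tissues. Xist, the RNA that coats the inactive X chromosome in female cells, lay below the array's median in 28 of 28 arrays, at 3.91 to 5.14 on the liver and quadriceps type and 3.46 to 5.09 on the other. Eif2s3y, Kdm5d and Uty, 3 Y-linked genes expressed in most male tissues, each lay above it in 28 of 28 arrays, at 7.29 to 9.07 on the liver and quadriceps type and 6.26 to 7.85 on the other. These genes were looked up after other results were known, and the mice are called labelled female here. Array medians lay between 6.54 and 6.62 in 24-month liver and between 6.47 and 6.48 in 6-month liver. The liver arrays carried hepatocyte RNA at both ages, with the mean of 11 of 12 hepatocyte markers between 13.45 and 13.49 at 24 months and between 13.48 and 13.50 at 6 months. Liver replicate 2 at 24 months stood apart in markers of the exocrine pancreas: the mean of 10 of 12 such markers was 6.08, 8.89 and 5.70 in the 24-month arrays and between 5.64 and 5.82 in the 6-month arrays. Among the quadriceps arrays, replicate 1 at 24 months had a hepatocyte marker mean of 8.43, against 6.50 and 6.28 in the other 24-month arrays and 6.84 to 7.25 in the 6-month arrays. Several results are also given without one of these arrays, and the others rest on all arrays. Cardiomyocyte markers (7 of 8) averaged 11.12, 12.04, 11.76 and 11.24 in 24-month heart and 11.76 to 12.07 in 6-month heart.

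STAT5 dimers bind the palindrome TTCNNNGAA, which reads the same on both strands. In the RefSeq promoter windows of build GRCm38.p6, which run from 250 bases before to 50 bases after a gene's start, this pattern was found in 8.30% of 32851 windows and in at least 1 window of 9.55% of 27025 genes. The table held 16 windows for 8 of the 9 regulators (none for Socs2). The pattern was in 4 of these windows, belonging to 3 genes: both windows of Bcl6 and 1 window each of Esr1 and Prlr. The windows of Ghr, Stat5a, Stat5b, Cux2 and Onecut1 held no match. Among the pathway genes followed below, Cish and Igfals had 2 matches each and Socs3 had 1, while Igf1, Jak2 and Hnf4a had none. The core bound by Onecut1, ATTGAT on either strand, was in 7.54% of all windows and in 0 of the 16. The windows of Bcl6, the regulator with most matches, and of Cish, a STAT5 target whose level is described below, are shown 5′ to 3′ on the strand of the gene, with the matches in capitals. A match is a description of these letters and not a measured binding site.
Cish, chr9:107296409-107296708, plus strand: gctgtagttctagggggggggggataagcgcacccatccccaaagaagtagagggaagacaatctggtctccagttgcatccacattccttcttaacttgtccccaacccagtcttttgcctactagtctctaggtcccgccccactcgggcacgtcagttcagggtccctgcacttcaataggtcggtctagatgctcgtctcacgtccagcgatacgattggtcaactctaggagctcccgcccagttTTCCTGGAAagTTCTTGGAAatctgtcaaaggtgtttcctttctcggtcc
Bcl6, upstream window, chr16:23988803-23989102, minus strand: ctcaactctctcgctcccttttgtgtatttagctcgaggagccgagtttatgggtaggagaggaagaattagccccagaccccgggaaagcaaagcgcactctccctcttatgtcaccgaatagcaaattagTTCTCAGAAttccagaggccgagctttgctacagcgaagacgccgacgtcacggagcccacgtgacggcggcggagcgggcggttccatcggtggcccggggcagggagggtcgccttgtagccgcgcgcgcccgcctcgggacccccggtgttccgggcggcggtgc
Bcl6, downstream window, chr16:23981234-23981533, minus strand: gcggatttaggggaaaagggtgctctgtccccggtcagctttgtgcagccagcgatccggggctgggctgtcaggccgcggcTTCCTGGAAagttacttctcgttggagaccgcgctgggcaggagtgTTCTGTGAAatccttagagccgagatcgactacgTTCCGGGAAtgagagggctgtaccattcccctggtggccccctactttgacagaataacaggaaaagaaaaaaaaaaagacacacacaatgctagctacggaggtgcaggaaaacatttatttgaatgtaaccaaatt
With positions counted from 1 at the gene's start and negative numbers before it, the Cish matches begin at 1 (TTCCTGGAA) and 12 (TTCTTGGAA). Those of the downstream Bcl6 window begin at -168 (TTCCTGGAA), -122 (TTCTGTGAA) and -88 (TTCCGGGAA), and that of the upstream Bcl6 window at -118 (TTCTCAGAA).

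None of the 8 measured regulators passed the test for a difference between 24 and 6 months in any of the 4 tissues (limma, Benjamini-Hochberg adjusted p under 0.05 over all genes of the array type). At that threshold 0.326% of all genes were called in liver, 0.00502% in quadriceps, 0.00665% in heart and 0.00998% in gastrocnemius. At an unadjusted p under 0.05, 3 of 8 regulators stood out in liver (Cux2, Stat5b and Onecut1) beside 32.8% of all genes. The same count was 1 of 8 in quadriceps (Esr1) beside 7.06%, 0 of 8 in heart beside 5.99%, and 3 of 8 in gastrocnemius (Stat5b, Stat5a and Bcl6) beside 16.5%. The arrays of the 2 ages did not overlap for 2 regulators in liver, 1 in quadriceps, 0 in heart and 2 in gastrocnemius, while this held for 36.1%, 12%, 3.29% and 8.65% of all genes in these tissues. The median difference of the regulators was 0.12 in liver (all genes 0.03), -0.02 in quadriceps (0.01), -0.02 in heart (0.01) and -0.06 in gastrocnemius (0.02). In these tissue samples, fewer cells of a type and less RNA per cell cannot be told apart.

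**Figure D1:**
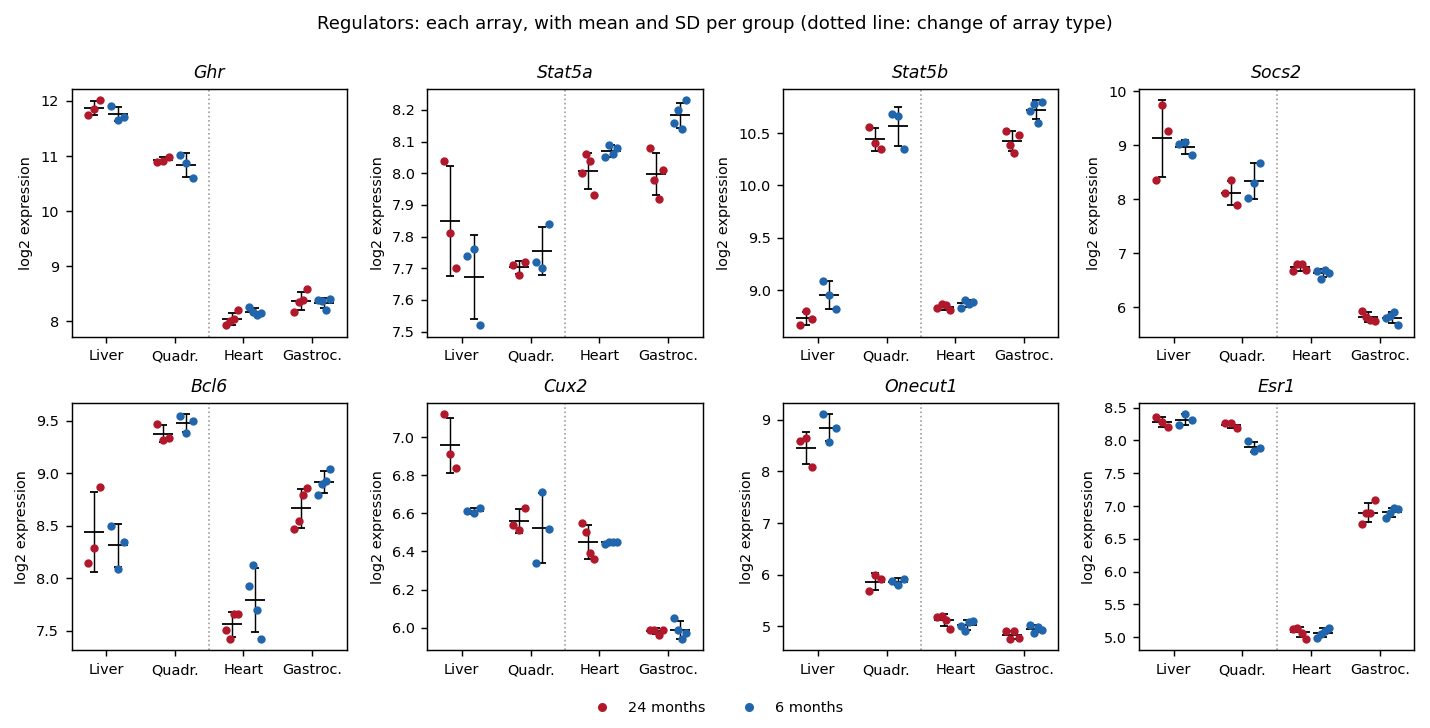
Log2 expression (vertical axis) of each of the 8 measured regulators in every array of the 4 tissues, with 24-month arrays left of 6-month arrays; bars are the mean and SD of 3 arrays per age in liver and quadriceps and 4 in heart and gastrocnemius, and the dotted line parts the 2 array types, whose levels are not comparable. In liver the 24-month Cux2 arrays (6.84 to 7.12) sit above the 6-month ones (6.60 to 6.63), and in gastrocnemius the 24-month Stat5b arrays (10.31 to 10.52) sit below (10.60 to 10.80).

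Ghr encodes the transmembrane receptor that binds growth hormone. Its liver signal was 11.75, 11.85 and 12.01 in the 24-month arrays and 11.91, 11.66 and 11.71 in the 6-month arrays. The ages overlapped, and the difference was 0.11 (SE 0.10, n = 3 per age, 95% confidence interval -0.12 to 0.34, adjusted p = 0.456 by limma). In quadriceps Ghr was 10.90, 10.91 and 10.99 at 24 months and 11.02, 10.88 and 10.60 at 6 months, a difference of 0.10 (interval -0.14 to 0.34). Heart arrays gave 7.93, 8.01, 8.05 and 8.20 at 24 months and 8.27, 8.17, 8.11 and 8.16 at 6 months, with 3 of the 24-month arrays below every 6-month array. That difference was -0.13 (SE 0.06, n = 4 per age, interval -0.27 to 0.01, adjusted p = 0.867 by limma). Gastrocnemius Ghr was 8.17, 8.35, 8.39 and 8.58 at 24 months and 8.38, 8.37, 8.21 and 8.40 at 6 months, overlapping throughout (0.03, interval -0.16 to 0.22). The 95% intervals of the age difference of Ghr therefore ended at 0.34 or less on the log2 scale in either direction in each tissue, which does not show that the ages were alike.

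Stat5a and Stat5b are neighbouring genes encoding closely related transcription factors that are phosphorylated at the activated receptor. Stat5b, the form that predominates in mouse liver in its response to growth hormone, had a liver signal of 8.67, 8.80 and 8.72 at 24 months and 9.09, 8.95 and 8.82 at 6 months. Every 24-month array lay below every 6-month array, by 0.02 at the nearest pair. The difference was -0.22 (SE 0.09, n = 3 per age, interval -0.43 to -0.02, adjusted p = 0.131 by limma) and did not pass. Without the pancreas-marked replicate 2 at 24 months, the highest old array, it was -0.26 (adjusted p = 0.217 by limma). In gastrocnemius Stat5b was 10.52, 10.39, 10.31 and 10.48 at 24 months and 10.71, 10.78, 10.60 and 10.80 at 6 months. Here too the ages did not overlap, and the difference was -0.30 (SE 0.06, n = 4 per age, interval -0.44 to -0.15), a 1.23-fold lower signal at 24 months. Its adjusted p was 0.107 in the limma fit of gastrocnemius alone and 0.0139 in a limma fit joint with heart, which estimates the spread over both tissues and called 2.76% of all genes. Quadriceps Stat5b was 10.56, 10.41 and 10.35 at 24 months and 10.68, 10.66 and 10.35 at 6 months, with the lowest array of each age at the same value. Heart Stat5b was 8.83, 8.87, 8.86 and 8.81 at 24 months and 8.83, 8.91, 8.87 and 8.89 at 6 months, and its interval ran from -0.12 to 0.06.

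Stat5a in liver was 8.04, 7.81 and 7.70 at 24 months and 7.74, 7.76 and 7.52 at 6 months. It was thus not placed below the young arrays as Stat5b was, and its difference was 0.18 (SE 0.11, interval -0.07 to 0.43, adjusted p = 0.281 by limma). In gastrocnemius Stat5a was 8.08, 7.98, 7.92 and 8.01 at 24 months and 8.16, 8.20, 8.14 and 8.23 at 6 months. All 4 old arrays lay below all 4 young ones, with a difference of -0.19 (SE 0.05, n = 4 per age, interval -0.30 to -0.07, adjusted p = 0.141 by limma). The joint fit with heart gave Stat5a an adjusted p of 0.0373 by limma. Quadriceps arrays held Stat5a between 7.68 and 7.72 at 24 months and between 7.70 and 7.84 at 6 months. Heart arrays held it between 7.93 and 8.06 at 24 months and between 8.05 and 8.09 at 6 months. The range of Stat5a at 24 months in liver, 0.34, was wider than that in quadriceps, 0.04, with 3 arrays each.

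Socs2 encodes a STAT5-induced inhibitor that binds the activated growth hormone receptor and marks it for degradation. Its brighter liver and quadriceps probe set (10394674) read 8.36, 9.75 and 9.27 in 24-month liver and 9.03, 9.07 and 8.82 in 6-month liver. The 24-month arrays took the lowest value and the highest 2 values of the 6. The difference was 0.15 (SE 0.29, interval -0.50 to 0.80), and without replicate 2 at 24 months, the array with pancreas markers and the highest Socs2, it was -0.16 (adjusted p = 0.692 by limma). In ID order the nearest 4 annotated probe sets of the brighter one belong to genes of chromosome 12 (Nbas, Gm16497, Ntsr2 and E2f6), while Socs2 lies on chromosome 10, so these values may come in part or whole from another sequence. A second probe set annotated to Socs2 (10372069), whose 4 neighbours are genes of chromosome 10, was dimmer, at 7.22, 7.77 and 7.47 in 24-month liver and 7.46, 7.27 and 6.93 in 6-month liver (difference 0.27, SE 0.17, adjusted p = 0.282 by limma). Both probe sets put replicate 1 lowest and replicate 2 highest among the 24-month livers. In quadriceps the brighter probe set read 8.12, 8.35 and 7.90 at 24 months and 8.02, 8.30 and 8.68 at 6 months. The dimmer one read 7.20, 7.42 and 6.79 at 24 months and 7.26, 7.34 and 7.56 at 6 months, so both overlapped. Socs2 lay between 6.67 and 6.80 in 24-month heart and between 6.53 and 6.70 in 6-month heart. In gastrocnemius it lay between 5.75 and 5.94 at 24 months and between 5.67 and 5.92 at 6 months. No age difference of Socs2 passed the test.

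Bcl6 encodes a zinc finger repressor that in mouse liver restrains female-biased genes. Liver Bcl6 was 8.15, 8.29 and 8.87 at 24 months and 8.50, 8.09 and 8.35 at 6 months. Replicate 3 at 24 months was the highest array, and without it the difference of 0.12 (SE 0.18, interval -0.29 to 0.54) became -0.09 (adjusted p = 0.593 by limma). In gastrocnemius Bcl6 was 8.47, 8.55, 8.79 and 8.86 at 24 months and 8.79, 8.90, 8.93 and 9.04 at 6 months. The lowest 2 old arrays lay below the young ones and the others within or at the edge of their range, and the difference was -0.25 (SE 0.09, n = 4 per age, interval -0.46 to -0.04, adjusted p = 0.242 by limma). Heart Bcl6 was 7.51, 7.42, 7.66 and 7.66 at 24 months and 7.93, 8.13, 7.70 and 7.42 at 6 months. The young hearts spread over 0.71 and the old ones over 0.24, and the difference was -0.23 (interval -0.54 to 0.07). Quadriceps Bcl6 was 9.47, 9.32 and 9.34 at 24 months and 9.55, 9.38 and 9.50 at 6 months (-0.10, interval -0.28 to 0.08).

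Cux2 encodes a homeobox factor that is abundant in female mouse liver, where it represses male-biased genes. Its liver signal was 7.12, 6.91 and 6.84 at 24 months and 6.61, 6.60 and 6.63 at 6 months. All 3 old livers lay above all 3 young livers, which spread over 0.03. The young values lay just above the medians of their arrays (6.47 to 6.48). The medians of the old arrays, 6.62, 6.60 and 6.54, had the same order as their Cux2 values. The difference was 0.34 (SE 0.09, n = 3 per age, interval 0.14 to 0.55), a 1.27-fold higher signal, with an adjusted p of 0.0630 by limma. This was the smallest adjusted p of any regulator in the age fits and lay just outside the threshold. The adjusted p of Cux2 was 0.0362 with dim genes left out, 0.0429 with an intensity trend and robust prior, 0.00887 with array weights and 0.0311 in a fit joint with quadriceps, all by limma. The same fits called 17%, 11.3%, 39.6% and 18.2% of all genes in liver. Leaving out dim genes kept a gene when the higher of its 2 age means reached the median of all values. That filter used the age groups, so its p is not independent of them. Over the other alternatives the adjusted p of Cux2 reached 0.129 by limma with quantile normalization (difference 0.28). The difference was least, 0.25, with median centring. Without replicate 3 at 24 months the adjusted p was 0.0217 by limma (difference 0.40, 25.5% of all genes called). Without the pancreas-marked replicate 2 it was 0.172 (difference 0.37) in the same test. Markers of T and NK cells (6 of 6) averaged 6.21, 6.00 and 5.94 in the old livers and 5.58 to 5.85 in the young. Those of skeletal muscle (8 of 8) averaged 6.02 to 6.22 in the old livers and 5.75 to 5.88 in the young. Those of B and plasma cells (5 of 6) averaged 6.03 to 6.61 in the old livers and 5.68 to 6.0 in the young. Each of these marker means lay below the median of its array. Their part in the Cux2 difference was not tested.

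Outside liver, Cux2 in quadriceps was 6.54, 6.51 and 6.63 at 24 months and 6.34, 6.71 and 6.52 at 6 months. In heart it was 6.55, 6.50, 6.39 and 6.36 at 24 months and 6.44, 6.45, 6.45 and 6.45 at 6 months. Gastrocnemius arrays gave 5.99, 5.99, 5.96 and 5.99 at 24 months and 6.05, 5.99, 5.94 and 5.97 at 6 months. The ages overlapped in these tissues, with differences of 0.04, 0.0025 and -0.005.

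Onecut1 encodes the homeobox factor HNF6, which acts in hepatocyte and bile duct development and with STAT5 at liver genes. Its liver signal was 8.60, 8.65 and 8.09 in the 24-month arrays and 9.11, 8.58 and 8.85 in the 6-month arrays. The ages overlapped at 1 young array, and the difference was -0.40 (SE 0.17, interval -0.79 to -0.01, adjusted p = 0.146 by limma). Without replicate 3 at 24 months, its lowest array, it was -0.22, and with array weights -0.21. Without the pancreas-marked replicate 2 it was -0.50 (adjusted p = 0.194 by limma). Leaving out single arrays gave differences from -0.53 to -0.22. In quadriceps Onecut1 was 5.69, 5.99 and 5.92 at 24 months and 5.88, 5.79 and 5.92 at 6 months. Heart gave 5.18, 5.20, 5.13 and 4.95 at 24 months and 5.01, 4.90, 5.08 and 5.11 at 6 months, and gastrocnemius 4.91, 4.75, 4.90 and 4.78 at 24 months and 5.03, 4.87, 4.99 and 4.92 at 6 months. No age difference of Onecut1 passed in liver or in the other tissues. Its values lay below the array medians in quadriceps (6.36 to 6.40) and heart (5.27 to 5.35), and around them in gastrocnemius (4.88 to 4.97).

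Esr1 encodes oestrogen receptor alpha, which in liver links oestrogen to lipid and growth hormone signalling. In quadriceps Esr1 was 8.26, 8.27 and 8.19 at 24 months and 7.99, 7.84 and 7.88 at 6 months. The ages did not overlap, and the difference was 0.34 (SE 0.07, n = 3 per age, interval 0.18 to 0.50), a 1.26-fold higher signal, with an adjusted p of 0.536 by limma. Without the old array that carried hepatocyte markers it was 0.33 (adjusted p = 0.488 by limma). Liver Esr1 was 8.36, 8.28 and 8.20 at 24 months and 8.23, 8.40 and 8.32 at 6 months, overlapping fully (-0.04, interval -0.23 to 0.15). Heart values lay between 4.97 and 5.14 at 24 months and between 4.99 and 5.14 at 6 months, and gastrocnemius values between 6.73 and 7.09 at 24 months and between 6.81 and 6.97 at 6 months.

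**Figure D2:**
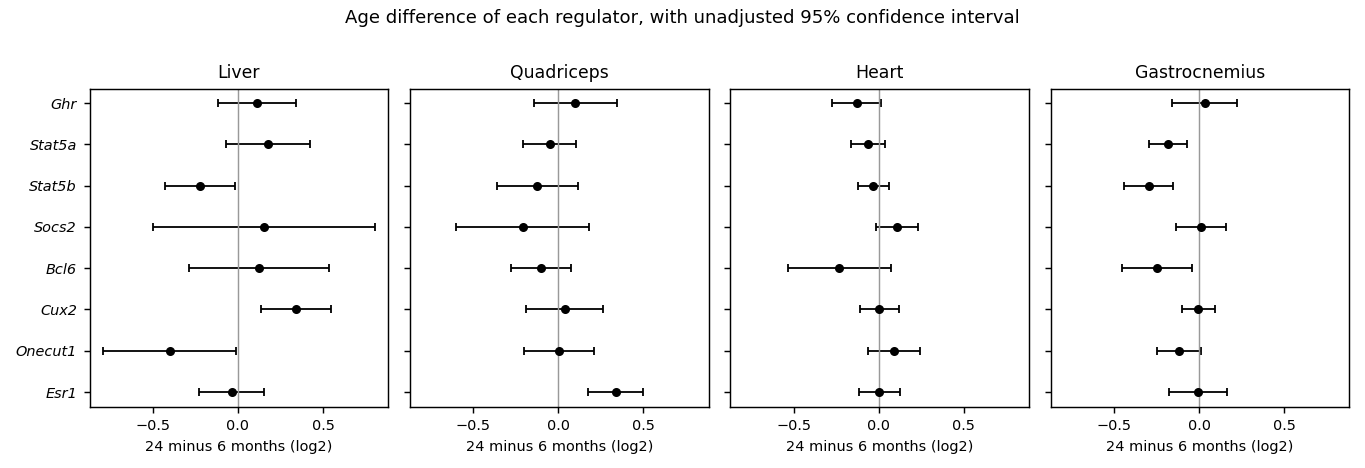
Age difference of each measured regulator (24 minus 6 months, log2, horizontal axis) in the 4 tissues, as points with unadjusted 95% confidence intervals from limma. Intervals lie clear of 0 for Cux2, Stat5b and Onecut1 in liver, Esr1 in quadriceps, and Stat5a, Stat5b and Bcl6 in gastrocnemius, and no adjusted p is under 0.05.

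Whether an age difference differed between tissues was tested within each array type as an interaction. No regulator passed between liver and quadriceps (0.0151% of all genes did, limma) or between heart and gastrocnemius (0.595%). At an unadjusted p under 0.05, 2 of 8 stood out between liver and quadriceps beside 19.8% of all genes, and 2 of 8 between heart and gastrocnemius beside 13.8%. The Esr1 difference in liver lay 0.37 below that in quadriceps (-0.37, SE 0.11, interval -0.60 to -0.15, adjusted p = 0.119 by limma). For Cux2 it lay 0.31 above (SE 0.14, interval 0.01 to 0.60, adjusted p = 0.238 by limma). Without the pancreas-marked liver array, Esr1 gave -0.37 and Cux2 0.33 (adjusted p = 0.220 and 0.318 by limma). Without the quadriceps array that carried hepatocyte markers, they gave -0.36 and 0.30 (adjusted p = 0.203 and 0.347 by limma). The Stat5b difference in heart lay 0.27 above that in gastrocnemius (0.27, SE 0.07, interval 0.11 to 0.42, adjusted p = 0.126 by limma), and the Onecut1 difference 0.21 above (adjusted p = 0.330 by limma). With array weights, the adjusted p was 0.0212 for Esr1 and 0.0409 for Stat5b by limma, in fits that called 12.7% and 2.46% of all genes.

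Levels were also compared between tissues of one array type, averaged over the ages; among the regulators these differences reached 2.78, against 0.40 between ages. Between liver and quadriceps 7 of 8 regulators passed the limma test, as did 77.2% of all genes, so the count itself does not set the regulators apart. Onecut1 was higher in liver by 2.78 (SE 0.11, 6.88-fold). The 6 liver arrays (8.09 to 9.11) did not overlap the 6 quadriceps arrays (5.69 to 5.99). The quadriceps values lay below the array medians, as given above. Ghr was higher in liver by 0.93 (SE 0.08, 1.91-fold), the liver arrays lying between 11.66 and 12.01 and the quadriceps arrays between 10.60 and 11.02. Stat5b was lower in liver by 1.66 on the log2 scale (3.16-fold), at 8.67 to 9.09 against 10.35 to 10.68 in quadriceps. Bcl6 was lower in liver too (2.07-fold), at 8.09 to 8.87 against 9.32 to 9.55. Without either of the 2 arrays that stood apart, 7 of 8 again passed, and Onecut1 differed by 2.74 without the quadriceps array. Socs2 differed by 0.82 (SE 0.19, adjusted p = 0.00129 by limma) on the brighter probe set but by 0.09 (SE 0.13, interval -0.18 to 0.36, adjusted p = 0.515 by limma) on the dimmer one, so its tissue difference depended on the probe set. As given above, the brighter one stands among genes of another chromosome. Cux2 (0.24) and Esr1 (0.23) were higher in liver as deposited, but neither passed after quantile normalization (0.10 and -0.04, adjusted p = 0.173 and 0.524 by limma). Stat5a differed by 0.03 (interval -0.11 to 0.18).

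Between heart and gastrocnemius, 7 of 8 regulators passed the limma test beside 82.8% of all genes. Stat5b was lower in heart, the arrays lying between 8.81 and 8.91, against 10.31 to 10.80 in gastrocnemius (3.28-fold). Esr1 was lower in heart as well, at 4.97 to 5.14 against 6.73 to 7.09 in gastrocnemius (3.56-fold). Bcl6 differed in the same direction, with 7.42 to 8.13 in heart and 8.47 to 9.04 in gastrocnemius (2.16-fold). These gene-wise ranges did not overlap. Socs2 was higher in heart, at 6.53 to 6.80 against 5.67 to 5.94 in gastrocnemius (1.83-fold), and Cux2 was higher at 6.36 to 6.55 against 5.94 to 6.05 (1.38-fold). Over the alternatives of processing the Cux2 difference ran from 0.145 to 0.47 on the log2 scale, and that of Socs2 from 0.55 to 0.87. Ghr was lower in heart by 0.24 on the log2 scale (SE 0.05, adjusted p = 6.42e-04 by limma), with overlapping ranges. Onecut1 was 0.18 higher in heart as deposited and 0.17 lower in heart after quantile normalization (-0.17), both past the threshold, so no direction is given for it. Stat5a did not pass as deposited (-0.05, adjusted p = 0.136 by limma) and was lower in heart by 0.15 after quantile normalization (-0.15, adjusted p = 0.00210 by limma).

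The scale of the arrays bears on these contrasts. The median of all genes was 0.13 between liver and quadriceps as deposited and -0.05 after quantile normalization. It was 0.27 between heart and gastrocnemius as deposited and -0.01 after it. Genes called higher and lower numbered 9498 and 5888 between liver and quadriceps, and 6999 and 8440 after quantile normalization. Between heart and gastrocnemius they numbered 20026 and 4864, and 10532 and 11202 after quantile normalization. Onecut1 and Ghr, higher in liver, and Stat5b, Bcl6 and Esr1, lower in heart, kept their direction under quantile normalization, median centring and cyclic loess.

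**Figure D3:**
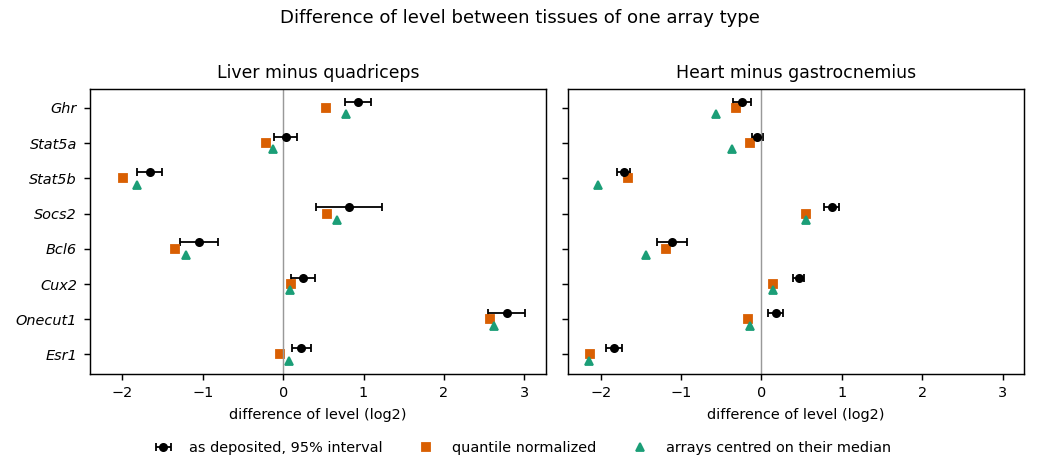
Difference of level of each measured regulator between tissues of one array type (log2, horizontal axis), as deposited with its 95% confidence interval (circles), after quantile normalization (squares) and with arrays centred on their median (triangles). Onecut1 stands at 2.78 between liver and quadriceps and turns sign between heart and gastrocnemius, and Stat5b lies below -1.6 in both panels.

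The partners and targets of these regulators were described from lists chosen by name, with results of these data known. Of 27 measured genes of growth hormone and IGF signalling, 0 passed in liver (limma, 0.326% of all genes called), 6 had an unadjusted p under 0.05 (32.8% of all genes), and their median difference was -0.06 (all genes 0.03). Igf1, the main circulating product of the pathway, was 12.18, 12.17 and 12.18 in 24-month liver and 12.29, 12.14 and 12.25 in 6-month liver. The old livers fell within the range of the young ones (-0.05, SE 0.08, adjusted p = 0.663 by limma). Igfals, whose protein holds IGF1 in a stable serum complex, was 9.38, 9.54 and 9.67 at 24 months and 9.76, 9.38 and 9.36 at 6 months. Jak2, the receptor's kinase, was 7.02, 7.03 and 7.34 at 24 months and 7.24, 7.25 and 7.18 at 6 months. Both overlapped between the ages.

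Cish encodes a SOCS-family inhibitor induced by STAT5, and its promoter window is one of those shown above. It was 7.78, 7.67 and 7.01 in 24-month liver and 8.31, 8.03 and 8.11 in 6-month liver. Every old liver lay below every young one, and the difference was -0.66 (SE 0.18, 1.58-fold lower, adjusted p = 0.0672 by limma). The adjusted p of Cish by limma ran from 0.0139 (array weights, 39.6% of all genes called) to 0.167 (quantile normalization) over the alternatives. Without replicate 3 at 24 months, the lowest array, the difference was -0.42 (adjusted p = 0.0264 by limma, 25.5% of all genes called). Without the pancreas-marked replicate 2 the difference was -0.755 (adjusted p = 0.172 by limma). Socs3, another inhibitor of the family, overlapped between the ages at 7.51, 7.40 and 7.26 against 7.70, 7.49 and 7.16. Grb14, an adaptor that inhibits insulin receptor signalling, was 9.02, 9.09 and 9.13 at 24 months and 9.28, 9.45 and 9.62 at 6 months (-0.37, adjusted p = 0.0640 by limma). The leptin receptor Lepr was 6.11, 6.40 and 7.64 at 24 months and 7.42, 9.28 and 8.98 at 6 months (-1.84, SE 0.50, adjusted p = 0.0655 by limma). Socs1, an inhibitor of cytokine signalling, was 7.33, 7.37 and 7.0 at 24 months and 6.77, 6.92 and 7.0 at 6 months (0.34, adjusted p = 0.0919 by limma).

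In quadriceps, Igf1 was 7.41, 7.22 and 7.18 at 24 months and 7.70, 7.83 and 7.99 at 6 months, and Jak2 was 8.29, 8.26 and 8.05 at 24 months and 8.51, 8.68 and 8.58 at 6 months. The ages did not overlap for either gene, and the differences were -0.57 (SE 0.10, adjusted p = 0.258 by limma) and -0.39 (SE 0.09, adjusted p = 0.558 by limma). The Igf1 difference in liver lay 0.52 above that in quadriceps (SE 0.12, adjusted p = 0.0924 by limma). For both genes the highest 24-month quadriceps value came from replicate 1, the array that carried hepatocyte markers. These differences are not given without that array. Cish in heart was 7.60, 8.03, 8.04 and 7.89 at 24 months and 7.44, 7.47, 7.73 and 7.89 at 6 months, overlapping (0.26, adjusted p = 0.855 by limma). None of the signalling genes passed in quadriceps, heart or gastrocnemius, where 27, 26 and 26 were measured. At an unadjusted p under 0.05 the limma fits held 6 of these genes in quadriceps (7.06% of all genes), 2 in heart (5.99%) and 7 in gastrocnemius (16.5%).

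**Figure D4:**
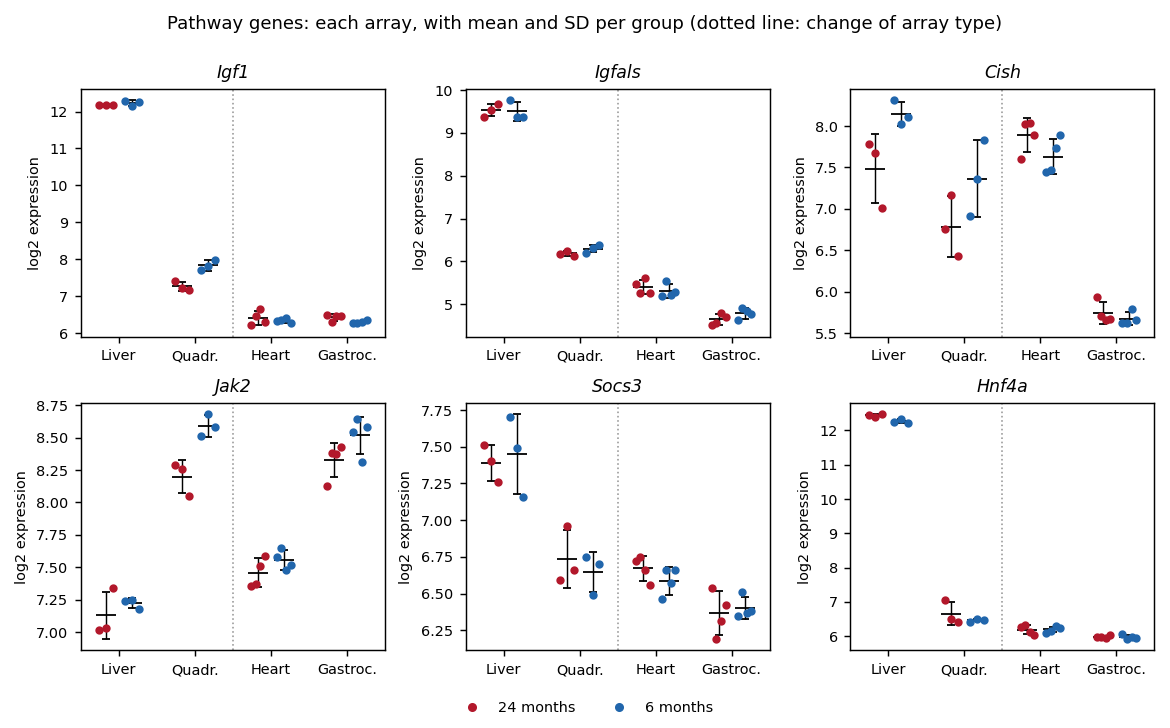
Log2 expression (vertical axis) of 6 genes of the pathway in every array of the 4 tissues, 24-month arrays left of 6-month arrays, with the mean and SD of 3 arrays per age (liver, quadriceps) or 4 (heart, gastrocnemius); the dotted line parts the array types. Liver Igf1 lies between 12.14 and 12.29 at both ages, while liver Cish lies between 7.01 and 7.78 at 24 months and between 8.03 and 8.31 at 6 months.

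The list of liver transcription factors of sex-patterned expression held 0 calls of 22 measured. By limma 7 had an unadjusted p under 0.05 (32.8% of all genes), and the median was 0.06 (all genes 0.03). Hnf4a, the nuclear receptor needed for hepatocyte gene expression, was 12.44, 12.40 and 12.47 at 24 months and 12.24, 12.34 and 12.22 at 6 months (0.17, adjusted p = 0.157 by limma). Zbtb16, a zinc finger factor, was 9.53, 9.60 and 9.99 at 24 months and 8.0, 8.61 and 9.43 at 6 months (1.03, SE 0.30, adjusted p = 0.0724 by limma). The ages did not overlap for either of them. Nr1i3 (CAR, the xenobiotic receptor) differed by 0.31, Cebpd by 0.29 and Foxa2 by -0.23, each with an adjusted p between 0.0735 and 0.0885 by limma. Partners and targets of the oestrogen and prolactin receptors held 0 calls of 15 by limma, 6 at an unadjusted p under 0.05 (32.8% of all genes), and a median of 0.02. Their 4 genes of smallest p were Cited1 (0.40), Lifr (-0.31), Esr2 (0.23) and Foxa1 (-0.22), whose adjusted p ran from 0.0543 to 0.106 by limma.

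Among the 5 lists, only those of genes known for male or female bias in mouse liver held liver calls. They held 7 of the 65 genes called in liver, and their tie to the axis was not tested. The 6-month livers, labelled female, had low Cyp2b9 (5.06 to 6.04, below the array medians) and high Cyp4a12a (12.12 to 12.46), beside the Xist and Y-linked levels given above. Of 24 measured male-biased genes, 4 fell in 24-month liver and 0 rose, beside 0.186% of all genes called lower. Of the 24 differences 23 were below 0, and their median was -0.38 (all genes 0.03, and -0.09 with dim genes left out). At an unadjusted p under 0.05 the limma fit held 17 of the 24, beside 32.8% of all genes. Cyp4a12b, a fatty acid hydroxylase, was 11.37, 11.67 and 11.57 at 24 months and 12.54, 12.34 and 12.43 at 6 months, and fell by 0.90 on the log2 scale (-0.90, SE 0.10, 1.87-fold lower, adjusted p = 0.0493 by limma). Cyp4a12a (-0.72), Nudt7 (-0.77), a peroxisomal hydrolase of coenzyme A, and Nat8f5 (-1.05) fell with the same adjusted p of 0.0493 by limma. Cyp7b1, an oxysterol hydroxylase, was 10.48, 11.02 and 10.93 at 24 months and 11.60, 11.52 and 12.07 at 6 months (-0.92, adjusted p = 0.0543 by limma), with no overlap. Elovl3, a fatty acid elongase, and Hsd3b5, a steroid reductase, overlapped between the ages, with differences of -0.28 and -0.43.

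Of 23 measured female-biased genes, 3 rose and 0 fell, beside 0.141% of all genes called higher. Of the 23 differences 15 were above 0 and 8 below, and their median was 0.13 (all genes 0.03). At an unadjusted p under 0.05 the limma fit held 10 of the 23, beside 32.8% of all genes. Cyp2b9, a cytochrome P450 abundant in female liver, was 10.27, 7.93 and 10.88 at 24 months and 6.04, 5.23 and 5.06 at 6 months. Every old liver lay above every young one, and the difference was 4.25 (SE 0.64, 19.0-fold, adjusted p = 0.0493 by limma). The lowest old array was the pancreas-marked replicate 2, and without it the difference was 5.13 (adjusted p = 0.00170 by limma). The organic anion transporter genes Slc22a26 (0.76) and Slc22a27 (0.62) rose with an adjusted p of 0.0493 by limma. Both were dim. Slc22a27 lay between 4.69 and 5.02 at 24 months and between 4.19 and 4.31 at 6 months, below the lower quartile of every liver array. Slc22a26 lay between 6.54 and 6.88 at 24 months and, below the array medians, between 5.77 and 6.10 at 6 months. Cyp2b10, a close relative of Cyp2b9 and a target of Nr1i3, was 6.78, 6.29 and 6.43 at 24 months and 5.81, 5.71 and 5.79 at 6 months (0.73, adjusted p = 0.0543 by limma). Cyp4a12a and Cyp4a12b are near-identical copies and Cyp2b9 and Cyp2b10 close relatives, and their probe sets could share signal. These 7 calls lie close to the threshold: none held without replicate 1 of the 24-month livers or without any of the 6-month livers (adjusted p from 0.0762 to 0.162 by limma), and only Cyp2b9 held without replicate 2 of the 24-month livers. Of the 7, 1 held after quantile normalization (adjusted p up to 0.0724 by limma) and 4 after cyclic loess (up to 0.064). The spread of the arrays moved with age as well: the 24-month livers had interquartile ranges of 2.43, 2.49 and 2.66, against 2.75 to 2.79 for the 6-month livers, with lower quartiles of 5.39 to 5.52 at 24 months and 5.32 to 5.34 at 6 months and upper quartiles of 7.95 to 8.05 at 24 months and 8.09 to 8.11 at 6 months. The T and NK cell, skeletal muscle, and B and plasma cell markers given with Cux2 were also higher at 24 months. Their means lay below the array medians at both ages. Their part in the sex-biased lists was not tested.

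**Figure D5:**
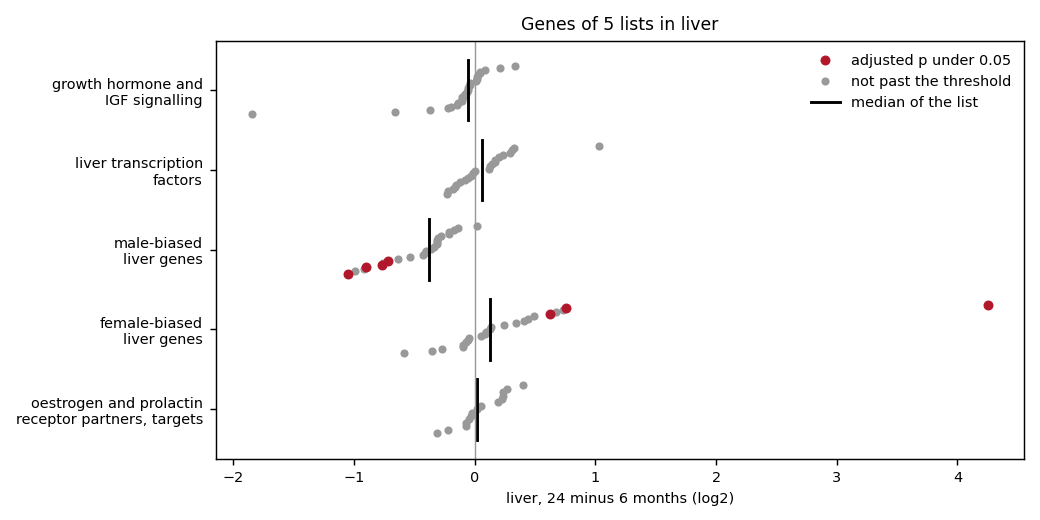
Liver age difference (24 minus 6 months, log2, horizontal axis) of every measured gene of the 5 lists, 1 point per gene, with the list's median as a bar; coloured points have an adjusted p under 0.05. The coloured points are 4 male-biased genes below 0 and 3 female-biased genes above 0, the farthest being Cyp2b9 at 4.25.

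The genes whose pattern was most like each regulator were found by Pearson correlation over the 28 arrays after the mean of each tissue was subtracted, among 18974 genes measured on both types. This is a description over arrays that share tissues, ages and array normalization. Wwp1 (r = 0.873), Cept1 (0.828) and Ptp4a2 (0.788) were most like Ghr. Daam2 (0.775), Tmem189 (0.761) and Gabrr2 (0.760) were most like Stat5a, and Rfx3 (0.789), Dyrk2 (0.767) and Nr2f6 (0.761) most like Stat5b. For Socs2 they were Zfp385b (0.834), E2f8 (0.749) and 4930520O04Rik (0.737), and for Bcl6 Adh5 (0.715), Pecr (0.707) and Parp8 (0.679). Cux2 had the closest matches of the 8 regulators, Heatr4 (0.912), Tox2 (0.900) and Spdye4c (0.892). Onecut1 was most like Abtb2 (0.809), Usf1 (0.772) and Trabd (0.765), and Esr1 most like Pate13 (0.789), Wsb2 (0.787) and Prkag3 (0.786). None of the 8 regulators was among the 3 most like another.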

How the data were processed

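Total RNA of 28 tissue samples was hybridised to 2 Affymetrix array types. The authors deposited log2 expression values per probe set, made with RMA per the submitters' processing notes (version not given in the sources used here), which can remove shifts common to most genes of an array. The number of arrays limits the precision. Symbols were updated through RefSeq (GRCm38.p6). Probe sets with 1 symbol entered, the one with the highest mean per gene: 19928 genes for liver and quadriceps and 30063 for heart and gastrocnemius.

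Ages were compared per tissue in R 4.3.3 with limma 3.58.1 (lmFit, eBayes, two-sided), with Benjamini-Hochberg adjustment over all genes and a threshold of 0.05. Tissues of one array type were compared in a joint model. The fits were tested on simulated data. The regulators, the lists and the rule for named genes (all regulators, the 4 genes of smallest p in liver per list, 12 fixed pathway genes, and 3 genes most like each regulator) were chosen with earlier results of these data known. Of the 12, Cyp2a4 was not analysed here. Motifs were searched in RefSeq promoter windows. The closing section gives the alternatives.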

Additional observations from a re-analysis of the deposited data

Results flagged for a closer look

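A single array lay apart from the other 3 in 3 of 52 tests of a gene in a group of 4 arrays, where chance gives about 1 in 20. Ghr in gastrocnemius at 6 months was 8.21 in replicate 3 and 8.37 to 8.40 in the others. Cux2 in heart at 6 months was 6.44 in replicate 1 and 6.45 in each of the others, and Cux2 in gastrocnemius at 24 months was 5.96 in replicate 3 and 5.99 in each of the others, both gaps being close to the 2 decimals of the deposited values.

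The age difference of Cyp2b10, the female-biased cytochrome P450, was 1.11 higher in heart than in gastrocnemius and passed the interaction test (limma). Heart arrays read 6.83, 6.69, 6.57 and 6.28 at 24 months and 5.13, 5.70, 5.64 and 5.49 at 6 months, with no overlap. Gastrocnemius arrays read 4.16, 4.16, 4.05 and 4.14 at 24 months and 4.20, 4.11, 4.0 and 4.22 at 6 months, overlapping throughout. The heart difference alone (1.10) had an adjusted p of 0.0634 by limma.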

How the results depend on the processing

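Replicate numbers did not meet the rule for pairing, a correlation over 0.1 in every pair, in any tissue: same-numbered arrays of the 2 ages had correlated deviations of -0.02 to 0.047 in liver, -0.042 to 0.156 in quadriceps, -0.22 to -0.002 in heart and -0.045 to 0.299 in gastrocnemius, where 3 of 4 such pairs exceeded 0.1 (0.129, 0.214 and 0.299) and different-numbered pairs lay between -0.196 and 0.111. With a replicate block 0 of all genes and 0 of 8 regulators were called for age in liver and gastrocnemius, and the 7 sex-biased liver genes had an adjusted p of 0.061 by limma. Those 7 also lost their call with every probe set tested (0.0539); 1 held with quantile normalization, 4 with cyclic loess and 6 with trend and robust prior. All genes called for age in liver numbered 65, and 0 to 7897 over the alternatives (347 higher and 1613 lower with median centring, 28 and 37 as deposited); in gastrocnemius they numbered 3, and 0 to 829, in heart 2, and 0 to 25, and in quadriceps 1, and 0 to 18. The interactions gave 3 (3 to 2523) for liver and quadriceps and 179 (62 to 739) for heart and gastrocnemius. Leaving out single arrays gave 0 to 5073 in liver and 0 to 1462 for liver against quadriceps (both highest without liver replicate 3 at 24 months), 0 to 70 in gastrocnemius, 0 to 5 in heart, 0 in quadriceps, and 22 (without heart replicate 1 at 6 months) to 547 (without gastrocnemius replicate 3 at 24 months) for heart against gastrocnemius.

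The count of regulators called was 1 (Cux2) in liver with dim genes left out (17% of all genes called), trend and robust prior (11.3%), array weights (39.6%) or the joint fit (18.2%), 2 in gastrocnemius with the joint fit (2.76%), and 1 in each interaction with array weights (12.7% and 2.46%); leaving out single arrays gave 0 to 1 in liver. No other count of regulators changed by over 1.5 times.

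These differences changed sign. For quantile, median centred and cyclic loess scaling in that order, they were Onecut1 in quadriceps (-0.011, -0.01, -0.013), Cux2 (-0.011, -0.018, -0.011) and Esr1 (-0.013, -0.018, -0.014) in heart, Stat5a between liver and quadriceps (-0.22, -0.12, -0.12) and Onecut1 between heart and gastrocnemius (-0.17, -0.14, -0.17). With quantile and cyclic loess they were Esr1 in liver (0.10, 0.10) and gastrocnemius (0.027, 0.023); with quantile and median centring Socs2 in gastrocnemius (-0.00031, -0.0075). With quantile alone they were Esr1 between liver and quadriceps (-0.039) and Socs3 in liver (0.0011), with median centring Igfals in liver (-0.06), with array weights Cux2 in quadriceps (-0.028) and Hsd3b5 in liver (0.079), and with the mean of probe sets Socs3 in liver (0.14). The cause was not tested.

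Leaving out single arrays turned the sign of these differences, given as lowest and highest. In liver they were Socs2 (-0.16 to 0.54), Bcl6 (-0.093 to 0.27), Esr1 (-0.08 to 0.005), Igfals (-0.04 to 0.16), Socs3 (-0.205 to 0.065) and Hsd3b5 (-0.74 to 0.17). In quadriceps they were Ghr (-0.017 to 0.19), Cux2 (-0.055 to 0.13) and Onecut1 (-0.058 to 0.092), and in heart Cux2 (-0.031 to 0.033) and Esr1 (-0.024 to 0.037). In gastrocnemius they were Ghr (-0.037 to 0.10), Socs2 (-0.038 to 0.046), Cux2 (-0.021 to 0.016) and Esr1 (-0.068 to 0.052), and between liver and quadriceps Stat5a (-0.014 to 0.072).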
